A study of Gallus gallus with 16 samples.

Results

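The translation factor genes of the chicken jejunum were taken as all genes whose symbol begins with EIF1 to EIF6 or with EEF1 or EEF2, leaving out the EIF2AK genes, which encode kinases of eIF2. A gene was used where a probe set of the array carried its symbol and no other, and where several did, the probe set with the highest mean over all arrays was kept. This gave 45 genes of 11528 with a symbol of their own, measured among 20804 probe sets. Factors without such a probe set were not analysed here.

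The study profiled total RNA from 16 male broilers, chickens grown for meat, sampled in the jejunum (the part of the small intestine between duodenum and ileum) at day 21, with 1 Affymetrix array for each bird. The birds belonged to 4 dietary groups of 4, with the letters H, F, E and A. The series' title names a mixture of essential oils of oregano, thyme, rosemary and star anise, together with saponins, but the labels do not say which letter received which additive or which letter was the control, and no other treatment is given. Birds of a diet carry neighbouring numbers in their sample titles, and whether neighbours lived in 1 pen is not stated.

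Translation starts when initiation factors bring the initiator tRNA and the messenger RNA to the small ribosomal subunit: eIF2 carries the tRNA, eIF3 holds the complex together, and the eIF4 proteins bind the cap of the messenger RNA and unwind it. After the start codon has been found and the large subunit has joined, eEF1A brings each further tRNA and eEF2 moves the ribosome along. The gut lining renews itself fast and makes much protein, and the transcripts of many ribosomal proteins and elongation factors share a sequence at their 5′ end through which growth signals regulate how well they are translated, a step that an array of RNA levels does not measure.

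All values are log2 intensities, and differences are given on this scale as the mean of the first named diet minus that of the second. Signals of different probe sets have no common scale, so no gene is ranked against another by its level. The array medians lay between 5.941 and 6.097 and the lower quartiles between 4.447 and 4.611. The mean signal of 17 enterocyte markers lay between 10.87 and 11.50 in all birds, where the arrays' upper quartiles were 7.559 to 7.656, and that of 7 pancreatic acinar markers between 4.63 and 4.96. Since probe sets have no common scale, this is a coarse check of the labelled tissue only. Each array correlated with the others at a mean r of 0.9696 to 0.9804, lowest for replicate 4 of diet H.

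No translation factor gene differed between diets after adjustment. In limma's moderated F test over the 4 diets, 0 of 45 passed an adjusted p of 0.05 over all probe sets, the smallest adjusted p being 0.589, and the background was 0% of 20804 probe sets. At an unadjusted p of 0.05, 3 of the 45 passed (EIF3B, EIF3J and EEF1D), against 8.15% of all probe sets. The mean over the 45 genes was 8.55 ± 0.08 in diet H, 8.56 ± 0.04 in diet F, 8.53 ± 0.07 in diet E and 8.63 ± 0.06 in diet A (SD, n = 4 birds each). A diet A bird reached 8.70, the highest of the 16, and the birds of diets H and E spanned 8.48 to 8.66 and 8.46 to 8.63, so the diets overlapped.

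The gene with the smallest F p encodes a subunit of eIF3. EIF3B, the scaffold subunit that carries an RNA recognition motif, had 9.53, 9.46, 9.80 and 9.30 in diet H birds, 9.54, 9.44, 9.58 and 9.67 in diet F birds, 9.37, 9.84, 9.54 and 9.41 in diet E birds, and 10.06, 10.13, 9.96 and 9.67 in diet A birds. Apart from 1 bird at 9.67, the diet A birds lay above all other 12. The differences were -0.44 for H minus A, -0.40 for F minus A and -0.42 for E minus A (SE 0.139 each), with limma's adjusted p of 0.25, 0.721 and 0.613. The 3 comparisons share the diet A birds, so they are not independent of each other. Among birds with title numbers over 25 the difference H minus A was -0.27, and among those with lower numbers it was -0.61. Each of these values rests only on the diet H and diet A birds of that range.

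EIF3J, a loosely bound subunit that sits near the decoding centre of the small subunit, ran the other way. It had 8.11, 8.06, 8.39 and 8.32 in diet H birds, 7.83, 7.89, 8.16 and 8.07 in diet F birds, 7.55, 7.72, 8.03 and 7.82 in diet E birds, and 7.78, 7.57, 8.06 and 7.82 in diet A birds. Each diet H bird lay above all diet E birds and above all diet A birds, although the lowest diet H bird and the highest diet A bird both round to 8.06. The difference was 0.41 for H minus A (SE 0.135, 95% interval 0.12 to 0.70, limma's adjusted p = 0.257) and 0.44 for H minus E (SE 0.135, limma's adjusted p = 0.479). Within each range of title numbers the H minus A difference was 0.41.

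EIF3F and EIF3L were the other eIF3 subunits among the 10 genes with the smallest F p. EIF3F, which carries an MPN domain, had 9.09, 9.04, 9.23 and 8.94 in diet H birds, 9.41, 9.43, 9.16 and 9.12 in diet F birds, 9.13, 9.37, 9.27 and 9.20 in diet E birds, and 9.57, 9.48, 9.27 and 9.24 in diet A birds. EIF3L had 9.43, 9.41, 9.44 and 9.07 in diet H birds and 9.52, 9.50, 9.48 and 9.44 in diet F birds. Its values were 9.54, 9.79, 9.36 and 9.23 in diet E birds and 10.06, 9.76, 9.52 and 9.48 in diet A birds. For both genes all diet H birds lay below all diet A birds, by a narrow margin. The differences H minus A were -0.32 for EIF3F (SE 0.115, limma's adjusted p = 0.312) and -0.37 for EIF3L (SE 0.147, limma's adjusted p = 0.358).

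EIF3M, another eIF3 subunit, had 9.12, 8.94, 9.25 and 8.93 in diet H birds and 9.09, 8.81, 8.96 and 9.15 in diet F birds. Its values were 8.58, 8.99, 9.14 and 9.03 in diet E birds and 9.23, 9.24, 9.33 and 9.01 in diet A birds. It was among the 3 smallest p of E minus A, at -0.26 (SE 0.134, limma's adjusted p = 0.665), and all 4 diets overlapped. The remaining subunits were EIF3A, EIF3E, EIF3H and EIF3I. EIF3A, the largest subunit, averaged 9.42 ± 0.11 in diet H, 9.41 ± 0.09 in diet F, 9.47 ± 0.14 in diet E and 9.55 ± 0.19 in diet A. EIF3I, a subunit built as a propeller of WD repeats, averaged 9.60 ± 0.20 in diet H, 9.80 ± 0.08 in diet F, 9.78 ± 0.31 in diet E and 9.90 ± 0.16 in diet A. EIF3E averaged 9.45 ± 0.18 in diet H, 9.42 ± 0.22 in diet F, 9.60 ± 0.26 in diet E and 9.71 ± 0.12 in diet A, and EIF3H had diet means of 9.55 to 9.64. All 4 of these genes overlapped between diets.

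Over the 9 measured eIF3 subunits, the difference H minus A was below 0 for 8, with a median of -0.25 and EIF3J as the one above 0. For F minus A it was also below 0 for 8 of 9, with a median of -0.14, and for E minus A for 9 of 9, with a median of -0.11 (8 of 9 after quantile normalization). None passed the adjusted test in any of the 6 pairs, and no test was made over the group of subunits.

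The differences of the 3 eIF2 subunits were of both signs in H minus A and F minus A and all below 0 in E minus A. EIF2S1, the alpha subunit whose phosphorylation slows initiation, averaged 8.25 ± 0.20 in diet H, 8.16 ± 0.20 in diet F, 7.97 ± 0.28 in diet E and 8.10 ± 0.20 in diet A. EIF2S2, the beta subunit, had 8.16, 8.13, 8.34 and 8.28 in diet H birds, 7.78, 7.88, 8.15 and 8.10 in diet F birds, 7.65, 8.19, 7.74 and 7.80 in diet E birds, and 7.90, 8.01, 8.20 and 8.23 in diet A birds. The highest diet E bird for EIF2S2, 8.19, lay within the range of diet H, while the other 3 diet E birds lay below it. Its difference was 0.38 for H minus E (SE 0.133, limma's adjusted p = 0.488) and 0.25 for H minus F (SE 0.133, limma's adjusted p = 0.842). EIF2S3, the gamma subunit that binds GTP, averaged 9.32 ± 0.17 in diet H, 9.38 ± 0.12 in diet F, 9.43 ± 0.13 in diet E and 9.61 ± 0.23 in diet A.

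Most subunits of eIF2B, the factor that recharges eIF2 with GTP, had differences below 0 in H minus A, 4 of 5 with a median of -0.22, and 5 of 5 after quantile normalization. EIF2B2 averaged 8.74 ± 0.21 in diet H, 8.89 ± 0.07 in diet F, 8.95 ± 0.19 in diet E and 9.04 ± 0.16 in diet A. EIF2B5, the catalytic subunit, averaged 8.06 ± 0.09 in diet H, 8.15 ± 0.16 in diet F, 8.11 ± 0.18 in diet E and 8.33 ± 0.18 in diet A. The differences H minus A were -0.30 (SE 0.128, limma's adjusted p = 0.391) for EIF2B2 and -0.27 (SE 0.123, limma's adjusted p = 0.419) for EIF2B5. EIF2B3 was the exception, with means of 7.48 in diet H, 7.44 in diet F, 7.50 in diet E and 7.48 in diet A. EIF2B1, of the regulatory part of eIF2B, had means between 6.33 and 6.48 and EIF2B4 between 7.21 and 7.43 over the diets.

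EIF2D, which delivers tRNA to the ribosome without eIF2, had lower means in diets H, F and E than in diet A. It had 7.10, 7.21, 7.60 and 7.22 in diet H birds, 7.27, 7.20, 7.28 and 7.25 in diet F birds, 7.23, 7.68, 7.20 and 6.97 in diet E birds, and 7.65, 7.63, 7.75 and 7.37 in diet A birds. All diet F birds lay below all diet A birds, while 1 bird each of diets H and E lay within the diet A range. The difference was -0.32 for H minus A, -0.35 for F minus A and -0.33 for E minus A (SE 0.147 each), with limma's adjusted p of 0.422, 0.721 and 0.623. EIF2A, a protein also able to carry initiator tRNA and distinct from the eIF2 alpha subunit, averaged 7.83 ± 0.16 in diet H, 7.68 ± 0.15 in diet F, 7.70 ± 0.07 in diet E and 7.65 ± 0.23 in diet A.

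All 3 measured genes of start codon selection had differences above 0 in each comparison with diet A, with medians of 0.10 for H minus A, 0.08 for F minus A and 0.06 for E minus A, and none passed. EIF1, which keeps the scanning ribosome open, averaged 7.78 ± 0.20 in diet H, 7.85 ± 0.20 in diet F, 7.73 ± 0.14 in diet E and 7.67 ± 0.11 in diet A. EIF5, which makes eIF2 hydrolyse its GTP at the start codon, averaged 10.03 ± 0.22 in diet H, 9.80 ± 0.22 in diet F, 9.85 ± 0.21 in diet E and 9.75 ± 0.20 in diet A. For EIF5 all 4 diets overlapped. EIF1B, a paralogue of EIF1, had means of 7.88, 7.92, 7.89 and 7.85 in diets H, F, E and A.

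EIF5B, the GTPase that joins the large subunit, had the largest difference H minus A in size among the 45 genes. Its values were 7.97, 7.81, 8.33 and 8.45 in diet H birds, 7.49, 7.93, 8.14 and 7.72 in diet F birds, 7.50, 7.49, 7.87 and 7.82 in diet E birds, and 7.22, 7.17, 7.95 and 7.82 in diet A birds. In each of diets H, E and A the 2 birds with title numbers over 25 lay above the 2 with lower numbers, and the highest diet A bird, 7.95, exceeded the lowest diet H bird. The difference was 0.60 for H minus A (SE 0.204, 95% interval 0.17 to 1.03, limma's adjusted p = 0.275) and 0.47 for H minus E (SE 0.204, limma's adjusted p = 0.521). It was 0.51 among birds with title numbers over 25 and 0.70 among the others for H minus A. EIF6, which keeps the subunits apart until the large one is mature, averaged 9.62 ± 0.18 in diet H, 9.78 ± 0.11 in diet F, 9.58 ± 0.18 in diet E and 9.66 ± 0.17 in diet A.

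Among the cap-binding and helicase genes, EIF4G1 and EIF4G3 met the rule for values by bird. EIF4G1, the main scaffold between the cap-binding protein and eIF3, had 9.26, 9.17, 9.29 and 8.92 in diet H birds, 9.59, 9.40, 9.34 and 9.32 in diet F birds, 9.26, 9.41, 9.06 and 8.84 in diet E birds, and 9.45, 9.40, 9.28 and 9.39 in diet A birds. All diet H birds lay below all diet F birds, with a difference of -0.25 (SE 0.128, limma's adjusted p = 0.842). For F minus E the difference was 0.27 (SE 0.128, limma's adjusted p = 1), and those diets overlapped.

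EIF4G3, a paralogue of that scaffold, had 8.24, 8.14, 8.27 and 8.27 in diet H birds, 8.25, 8.33, 8.16 and 8.34 in diet F birds, 8.21, 8.12, 8.10 and 8.05 in diet E birds, and 8.14, 8.09, 8.11 and 8.03 in diet A birds. Its birds kept close together, so that small differences separated all diet H and all diet F birds from all diet A birds. These were 0.14 for H minus A (SE 0.0855, limma's adjusted p = 0.545) and 0.18 for F minus A (SE 0.0855, limma's adjusted p = 0.731).

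The birds of the 4 diets overlapped for the other genes of this role. EIF4E, the cap-binding protein, averaged 9.39 ± 0.21 in diet H, 9.27 ± 0.21 in diet F, 9.30 ± 0.29 in diet E and 9.35 ± 0.07 in diet A. EIF4A2, a helicase, averaged 11.40 ± 0.05, 11.40 ± 0.08, 11.39 ± 0.14 and 11.48 ± 0.06 in diets H, F, E and A. EIF4G2, a scaffold that lacks the site for EIF4E, averaged 11.11 ± 0.13 in diet H, 10.97 ± 0.09 in diet F, 11.04 ± 0.06 in diet E and 11.13 ± 0.10 in diet A. EIF4H, a helper of the helicase, had means of 8.93 to 8.99, and EIF4E2, a cap-binding protein linked to repression, of 8.46 to 8.57. EIF4E3, a further cap-binding paralogue, spread more widely, at 6.25 ± 0.39 in diet H, 6.42 ± 0.17 in diet F, 6.14 ± 0.48 in diet E and 6.41 ± 0.26 in diet A.

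The inhibitors of EIF4E are bound to it until mTORC1 phosphorylates them. EIF4EBP1 had 8.99, 9.17, 9.13 and 8.89 in diet H birds, 9.37, 9.17, 9.09 and 9.05 in diet F birds, 9.47, 9.32, 9.10 and 9.10 in diet E birds, and 9.47, 9.53, 9.14 and 9.35 in diet A birds. The lowest diet A bird, 9.14, fell within the diet H range, and the difference H minus A was -0.33 (SE 0.124, limma's adjusted p = 0.34). EIF4EBP2 had 4.26, 4.45, 4.25 and 3.97 in diet H birds, 4.86, 4.35, 4.13 and 4.50 in diet F birds, 4.08, 4.01, 4.07 and 4.30 in diet E birds, and 4.66, 4.51, 3.99 and 4.29 in diet A birds. These values lie around or below the lower quartiles of the arrays, and how far they stand above background was not tested. It was among the 3 smallest p of F minus E, at 0.35 (SE 0.17, limma's adjusted p = 1). EIF4ENIF1, which carries EIF4E into the nucleus, averaged 7.33 ± 0.08 in diet H, 7.23 ± 0.17 in diet F, 7.29 ± 0.15 in diet E and 7.40 ± 0.10 in diet A.

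Among the elongation factors, both subunits of the complex that recharges eEF1A had differences below 0 in each comparison with diet A. EEF1D, one of its guanine nucleotide exchange subunits, had 9.23, 9.31, 9.39 and 8.98 in diet H birds, 9.80, 9.20, 9.34 and 9.35 in diet F birds, 9.43, 9.83, 9.62 and 9.63 in diet E birds, and 10.21, 9.84, 9.59 and 9.38 in diet A birds. All diet H birds lay below all diet E birds, and only 1 diet A bird reached down into the diet H range. The difference was -0.53 for H minus A (SE 0.174, 95% interval -0.90 to -0.15, limma's adjusted p = 0.262) and -0.40 for H minus E (SE 0.174, limma's adjusted p = 0.521). Without the diet A bird at 10.21 the difference H minus A was -0.37. EEF1B2, the other exchange subunit measured, averaged 9.72 ± 0.19 in diet H, 9.82 ± 0.15 in diet F, 9.85 ± 0.21 in diet E and 10.05 ± 0.31 in diet A. Its H minus A difference was -0.34 (SE 0.158, limma's adjusted p = 0.431), and it was -0.03 in birds with title numbers over 25 and -0.64 in the others.

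EEF1A1, the tRNA carrier of most tissues, had 12.68, 12.75, 12.86 and 12.81 in diet H birds, 12.83, 12.73, 12.76 and 12.90 in diet F birds, 12.78, 13.12, 12.73 and 12.80 in diet E birds, and 13.07, 12.92, 12.79 and 12.82 in diet A birds. The diets overlapped, and the difference H minus A was -0.12 with a 95% interval of -0.35 to 0.10. EEF1A2, its paralogue of muscle and nerve, averaged 4.93 ± 0.15 in diet H, 4.95 ± 0.27 in diet F, 5.04 ± 0.12 in diet E and 5.03 ± 0.31 in diet A, below every array's median. EEF2, the translocase, averaged 11.90 ± 0.15 in diet H, 11.99 ± 0.05 in diet F, 11.88 ± 0.11 in diet E and 11.97 ± 0.14 in diet A, and its H minus A interval was -0.30 to 0.15.

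EEF2K, the kinase that inhibits eEF2, had 8.21, 8.19, 8.46 and 8.84 in diet H birds, 8.05, 8.21, 8.03 and 8.42 in diet F birds, 8.07, 8.16, 8.71 and 8.58 in diet E birds, and 8.08, 8.0, 8.59 and 8.06 in diet A birds. In every diet the highest bird had a title number over 25, and the H minus A interval ran from -0.16 to 0.64 around 0.24. EIF5A2, of the family that eases peptide bond formation at difficult stretches, averaged 8.05 ± 0.31 in diet H, 7.95 ± 0.17 in diet F, 7.86 ± 0.27 in diet E and 8.17 ± 0.12 in diet A. The symbols EEF1E1, EEF1AKMT1 and EEF2KMT fit the naming rule but encode a protein of the tRNA synthetase complex and methyltransferases of elongation factors, and their differences H minus A were 0.00, -0.17 and 0.06.

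**Figure D1:**
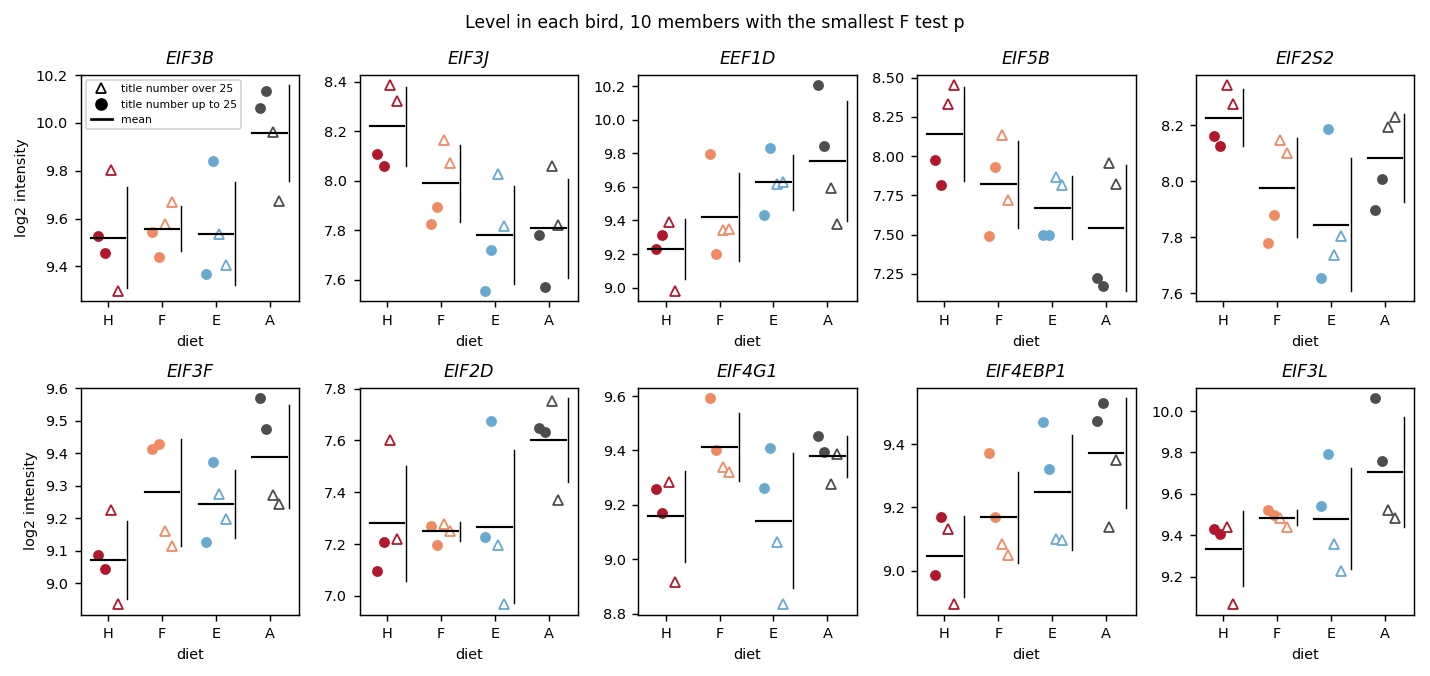
Log2 intensity of each bird (y axis) in diets H, F, E and A (x axis) for the 10 genes with the smallest F p, 4 birds a diet. Open triangles are birds with title numbers over 25 and filled circles the others, with the mean as a black line and the SD as a thin bar. EIF3B has its diet A mean of 9.96 above the other 3 diet means, and EIF3J its diet H mean of 8.22 above the other 3.

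In the comparison of diets H and A, more genes had a difference below than above 0, and none of the 45 passed limma's test (smallest adjusted p 0.25, that of EIF3B). The background of calls was 0.00481% of all probe sets, which is 1 probe set. The differences ran from -0.53 (EEF1D) to 0.60 (EIF5B) with a median of -0.09, and 32 of 45 were below 0 (71.1%), against a median of 0.00 and 49.8% over all probe sets. At an unadjusted p of 0.05, 12 of the 45 passed (26.7%), against 11.5% of all probe sets. Of these 10 were lower in diet H, against 5.91%, and 2 higher, against 5.62%. All birds of one diet lay beyond all of the other for 4 genes, against 6.07%. EIF3F and EIF3L were lower in all diet H birds, against 3.18%, and EIF3J and EIF4G3 higher, against 2.89%. The median was -0.05 among birds with title numbers over 25 and -0.17 among the others. The count of 12 was 4 without replicate 1 of diet A and 5 without replicate 4 of diet H. It was 6 without replicate 2 of diet A and 8 without replicate 2 of diet H. The share of 11.5% comes from the fit with all birds, so the counts without a bird have no matching background.

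For diets F and A, 0 of 45 genes passed limma's test, as of all probe sets (background 0%), with a smallest adjusted p of 0.721. The differences ran from -0.40 to 0.28 with a median of -0.08, and 29 were below 0. The median was 0.02 over all probe sets and 0.01 over the genes with a symbol of their own. At an unadjusted p of 0.05, 2 passed (EIF3B and EIF2D), or 4.44% against 6.83% of all probe sets. This count was 5 without replicate 4 of diet A. It was 1 without replicate 1 or 2 of diet A or replicate 2 of diet F. Since the share of 6.83% comes from the fit with all birds, the counts without a bird have no matching background. The birds did not overlap for 4 genes, against 4.93% of all probe sets. EIF2D, and by margins lost in rounding EIF3B and EIF4ENIF1, were lower and EIF4G3 higher in all diet F birds.

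For diets E and A, 0 of 45 passed limma's test (background 0%), with a smallest adjusted p of 0.613. The differences ran from -0.42 to 0.20 with a median of -0.10, and 36 of 45 (80%) were below 0, against a median of 0.03 and 45.2% over all probe sets. Over the genes with a symbol of their own the median was 0.00 and the share 48.9%. Those passing at an unadjusted p of 0.05 were 2 (4.44%), against 7.71%. The count was 8 without replicate 2 of diet E and 4 without replicate 4 of diet A. It was 1 without replicate 1 or 2 of diet A or replicate 1 or 4 of diet E. These counts without a bird have no matching background, since the share of 7.71% comes from the fit with all birds. No gene had its birds apart, against 3.86% of all probe sets. The comparisons of diets H, F and E with A all use the same 4 diet A birds.

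Among diets H, F and E, 0 of 45 genes passed limma's test in any pair, with smallest adjusted p of 0.842 for H minus F, 0.479 for H minus E and 1 for F minus E (background 0% each). The medians were -0.03, 0.01 and 0.00 for these pairs, against -0.02, -0.03 and 0.00 over all probe sets. The birds did not overlap for 1 gene in H minus F (EIF4G1, against 4.04% of all probe sets), for 2 in H minus E (EIF3J and EEF1D, against 5.33%) and for 0 in F minus E (against 2.01%). At an unadjusted p of 0.05, 4 genes passed in H minus E, which are EIF3J, EIF2S2, EIF5B and EEF1D, against 9.52% of all probe sets, and 0 in the other pairs, against 5.27% in H minus F and 2.95% in F minus E. Without replicate 2 of diet E these counts were 2 in each of the 3 pairs, and without replicate 4 of diet H the count of H minus E was also 2. With the title range as a block these counts were 4 in H minus F, 5 in H minus E and 4 in F minus E, and the count of F minus A was 5. The shares of all probe sets given here come from the fit with all birds and without that block. The blocked counts and the counts without a bird therefore have no matching background.

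The precision limits what these comparisons can show. The 95% interval of a difference between diets reached 0.282 to either side for the median gene, 0.182 for EIF4G3 and 0.69 for EEF1AKMT1. For H minus A, 26 of 45 intervals lay wholly within 0.5 of 0, and for F minus E 36 did. For the other genes a difference above 0.5 was not excluded by its interval.

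**Figure D2:**
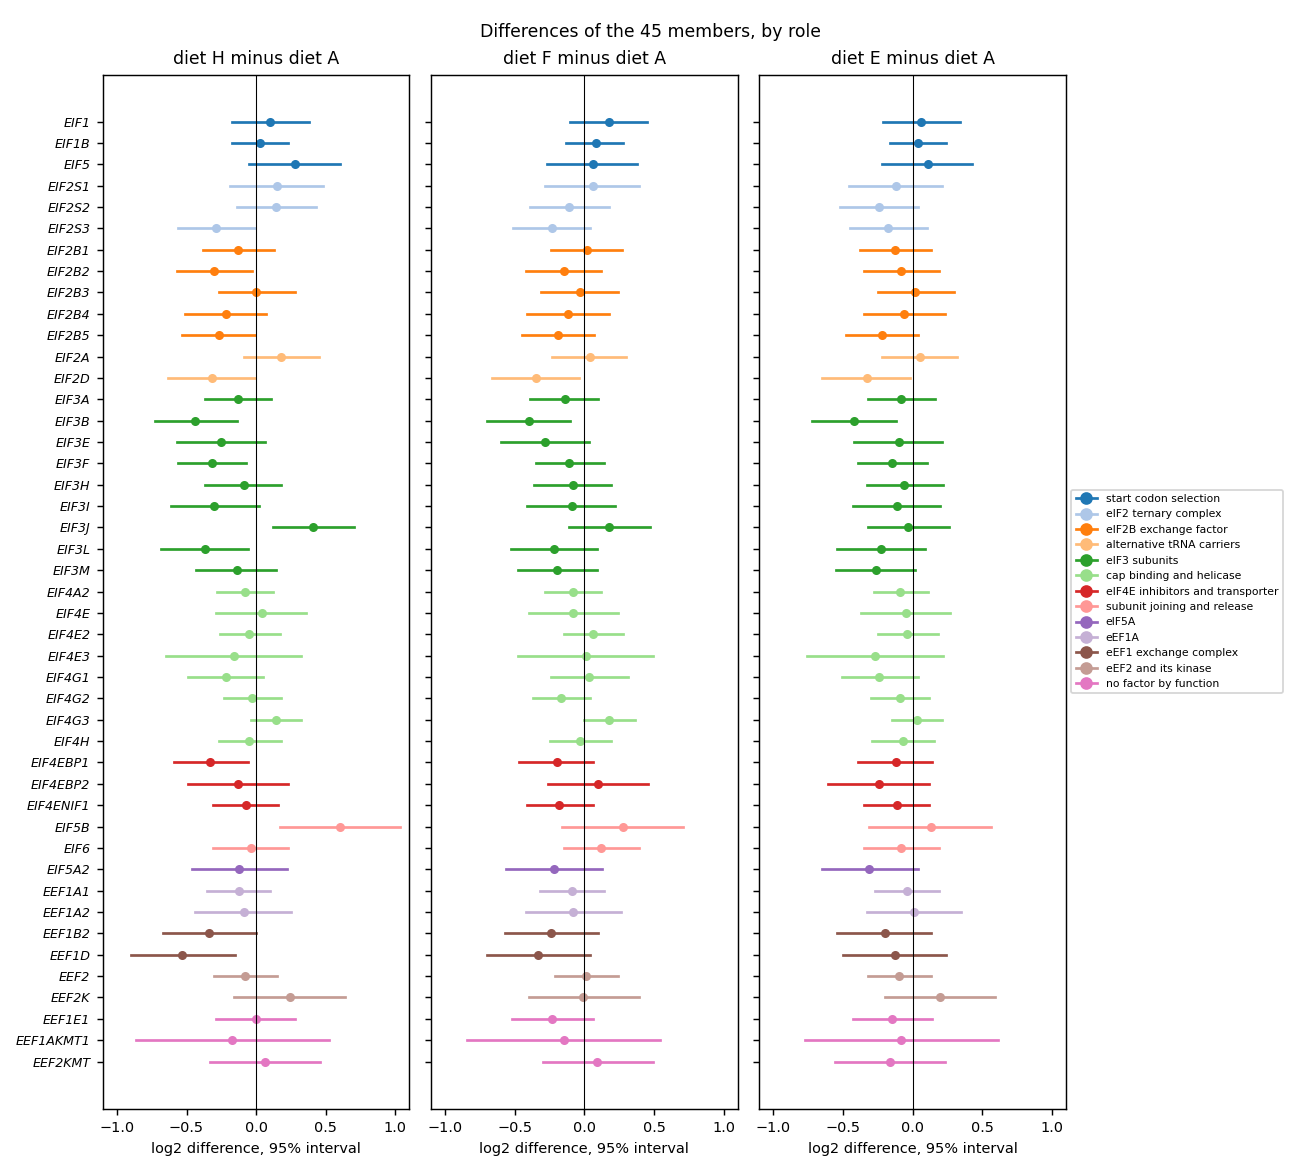
Difference in log2 intensity with its 95% interval (x axis) for each of the 45 genes (y axis) in H minus A, F minus A and E minus A, coloured by role. EIF5B at 0.60 and EEF1D at -0.53 are the outermost points of H minus A, and most points of E minus A, 36 of 45, lie below 0.

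Genes around the factors were read from 9 pathway lists, whose members did not pass limma's test in H minus A in any list. Of 53 cytosolic ribosomal protein genes, 52 had differences below 0 in H minus A, with a median of -0.49, and 43 of the 53 were lower at an unadjusted p of 0.05, against 5.91% of all probe sets. Their mean was 9.58 ± 0.15 in diet H, 9.77 ± 0.09 in diet F, 9.84 ± 0.29 in diet E and 10.07 ± 0.26 in diet A. All diet H birds lay below all diet A birds for 25 of them, against 3.18% of all probe sets, and the smallest adjusted p by limma was 0.197. The median was -0.31 for F minus A and -0.22 for E minus A. In H minus A it was -0.28 among birds with title numbers over 25 and -0.72 among the others. For comparison, the median of the 45 factor genes in H minus A was -0.09.

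The kinases and phosphatase subunits that act on eIF2 alpha had differences above 0 in H minus A for 6 of 6 genes, with a median of 0.28. PPP1R15B, a phosphatase subunit that restores initiation, differed by 0.31 (SE 0.107, limma's adjusted p = 0.286) and EIF2AK3, the kinase of the endoplasmic reticulum, by 0.34 (SE 0.135, limma's adjusted p = 0.357). The targets of the integrated stress response were divided, with 5 of 10 above 0 and a median of 0.05.

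The cytosolic aminoacyl-tRNA synthetases and their partners had 10 of 15 differences below 0 in H minus A, with a median of -0.11, and 14 of 15 in E minus A, with a median of -0.24. AIMP2, a scaffold of the synthetase complex, differed by -0.57 in H minus A (limma's adjusted p = 0.204), and SARS1, the seryl-tRNA synthetase, by -0.38 (limma's adjusted p = 0.34). The enzymes that make hypusine and diphthamide, the modified residues of eIF5A and eEF2, had 6 of 6 below 0 with a median of -0.15.

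The mTORC1 genes had 14 of 19 differences below 0 and a median of -0.06 in H minus A. Regulators of the cap complex had 9 of 14 above 0 with a median of 0.06, termination and recycling factors 7 of 11 above 0 with a median of 0.09, and mitochondrial translation factors 4 of 7 above 0 with a median of 0.07.

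Markers of cell types were read in the same comparison, and no marker passed limma's test in H minus A. In H minus A, 12 of 13 markers of crypt and proliferating cells were below 0, with a median of -0.62, and their mean spanned 5.40 to 6.95 in diet H birds and 6.49 to 7.18 in diet A birds. Enterocyte markers were above 0 for 15 of 17, with a median of 0.18, fibroblast markers below 0 for 7 of 7, with a median of -0.83, and T and NK cell markers below 0 for 8 of 9, with a median of -0.38. Enteroendocrine markers were above 0 for 9 of 9, with a median of 0.54, and goblet markers for 6 of 7, with a median of 0.16. Smooth muscle markers were below 0 for 5 of 5 (median -0.32), endothelial for 6 of 7 (-0.13) and macrophage and dendritic for 4 of 5 (-0.34). B and plasma cell markers were below 0 for 5 of 6 (-0.14), pancreatic acinar for 5 of 7 (-0.01) and erythrocyte for 2 of 4 (-0.06). The fibroblast median was -0.15 in birds with title numbers over 25 and -1.65 in the others. The smooth muscle, endothelial and erythrocyte medians changed sign between the ranges. They were 0.09, 0.24 and 0.24 in birds with title numbers over 25, and -0.73, -0.43 and -0.34 in the others. The part of these cell types in the differences of the translation factor genes was not tested. In tissue RNA, fewer cells of a type and less RNA per cell cannot be told apart.

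**Figure D3:**
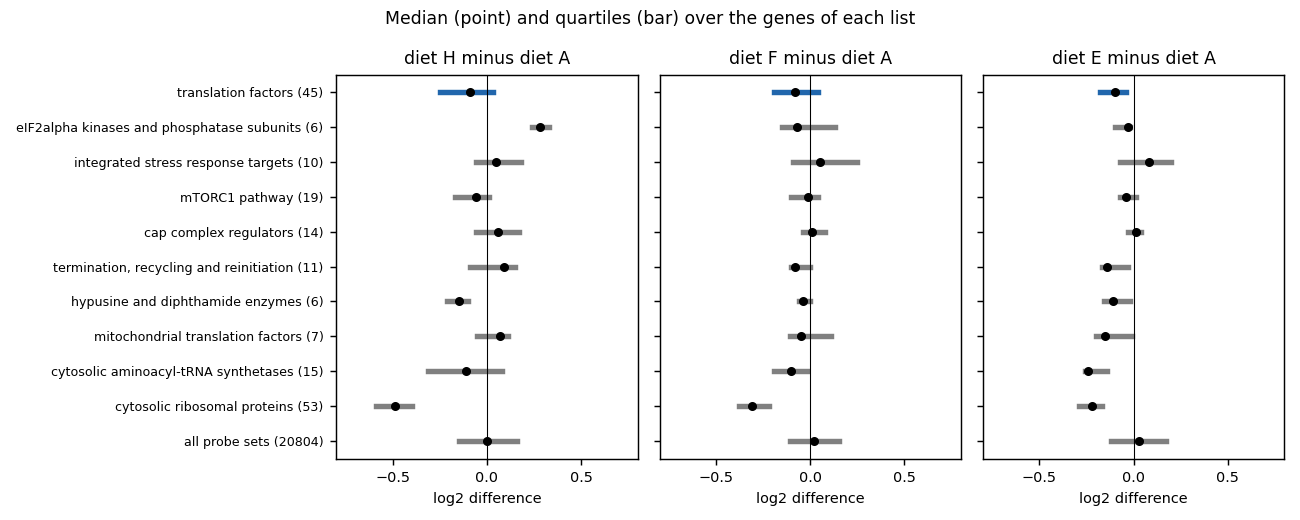
Median (point) and quartiles (line) of the log2 differences (x axis) in H minus A, F minus A and E minus A for the 45 translation factor genes, the 9 pathway lists and all probe sets (y axis). Ribosomal protein genes lie farthest below 0 in H minus A, at a median of -0.49, and the translation factor genes have a median of -0.09.

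The birds also differed by the numbers in their sample titles, and this was tested after it had been seen in the data. Each diet had 2 birds with numbers over 25 and 2 with numbers up to 25, so the ranges could be compared with diet in the model. The labels do not say what the numbers stand for. By limma, 7 of 45 genes (15.6%) passed an adjusted p of 0.05, against 8.39% of all probe sets and 10.4% of the genes with a symbol of their own, with 5 higher (against 6.42%) and 2 lower (against 1.98%) in the birds numbered over 25. At an unadjusted p of 0.05, 16 of 45 passed, against 25.2% of all probe sets. The median difference was -0.03, against -0.06 over all probe sets.

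The 5 genes higher in birds numbered over 25 were all initiation factors, as were the 2 lower genes and most of the 45. EIF2S1 averaged 8.30 ± 0.09 in them and 7.93 ± 0.15 in the others (SD, n = 8 birds each), a difference of 0.37 (SE 0.0561, limma's adjusted p = 0.00124). The ranges did not overlap, at 8.18 to 8.44 and 7.64 to 8.11, and the difference was 0.34 in diet H, 0.34 in diet F, 0.45 in diet E and 0.35 in diet A. EIF4E averaged 9.48 ± 0.09 in birds numbered over 25 and 9.17 ± 0.14 in the others (difference 0.31, SE 0.0714, limma's adjusted p = 0.0157), again with no overlap. Such separation was seen for 2 of 45 genes, EIF2S1 and EIF4E, against 1.35% of all probe sets.

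EIF5 averaged 10.02 ± 0.13 in birds numbered over 25 and 9.69 ± 0.15 in the others, a difference of 0.33 (SE 0.0656, limma's adjusted p = 0.00653). EIF5B averaged 8.01 ± 0.27 and 7.58 ± 0.30 in these ranges, a difference of 0.44 (SE 0.0913, limma's adjusted p = 0.00851), and EIF3J 8.08 ± 0.21 and 7.81 ± 0.20, a difference of 0.27 (SE 0.0638, limma's adjusted p = 0.0177). All 3 were higher in birds numbered over 25 within each of the 4 diets. Between diets, the H minus A differences of EIF5B and EIF3J were above 0 within both ranges of numbers.

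The 2 genes lower in birds numbered over 25 were EIF2B4, at 7.20 ± 0.14 in them and 7.46 ± 0.11 in the others (difference -0.27, SE 0.0673, limma's adjusted p = 0.0257), and EIF4E3, at 6.09 ± 0.28 and 6.52 ± 0.24 (difference -0.42, SE 0.123, limma's adjusted p = 0.049). When each of the 16 birds was left out in turn, EIF2S1, EIF5, EIF5B, EIF4E and EIF3J passed in 16 of 16 fits, EIF2B4 in 13 and EIF4E3 in 3. EIF2B4 was lost without replicate 2 of diet H, replicate 1 of diet E or replicate 3 of diet A. The number of genes that passed ran from 5 to 9, and no share of all probe sets from these fits stands beside it. Just outside the threshold were EEF2K, with a difference of 0.34 (limma's adjusted p = 0.0505), and EIF3E, with 0.26 (limma's adjusted p = 0.0557).

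Beside these, 52 of 53 ribosomal protein genes had differences below 0 between the ranges, with a median of -0.22. Of the 53 genes 3 passed (5.66%), all with a difference below 0. The background was 8.39% of all probe sets in either direction and 1.98% with a difference below 0. Most probe sets also lay below 0 in this comparison, 12814 of 20804, with a median of -0.06. The crypt markers were below 0 for 10 of 13 with a median of -0.24, and enterocyte markers above 0 for 13 of 17 with a median of 0.16. Their part in the differences of the factor genes was not tested.

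**Figure D4:**
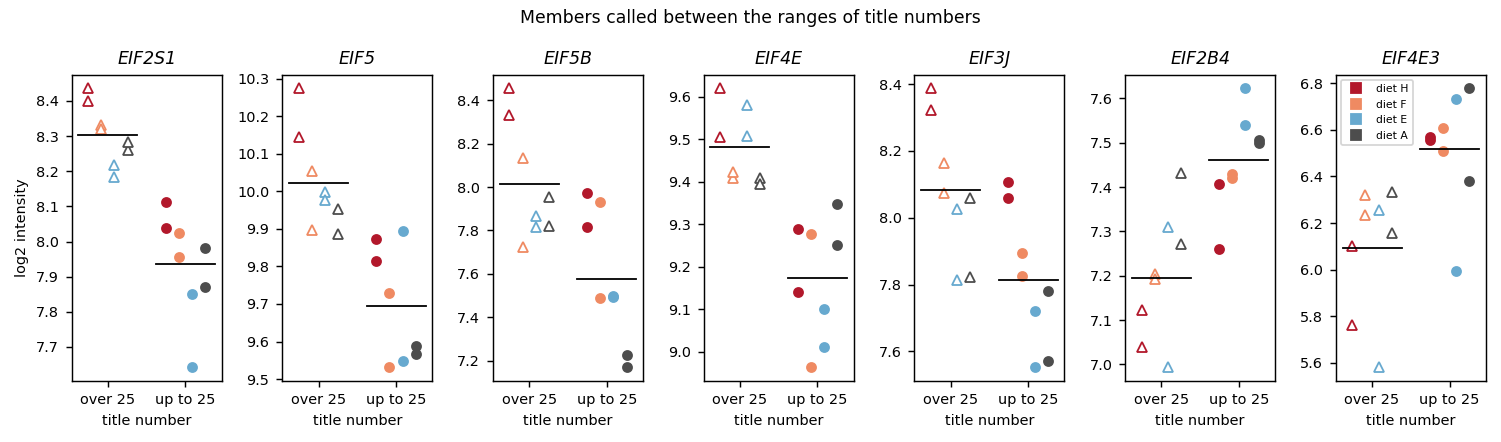
Log2 intensity of each bird (y axis) for the 7 genes that passed, in birds with title numbers over 25 and in those with numbers up to 25 (x axis), coloured by diet, with the mean of 8 birds as a line. EIF2S1 and EIF4E do not overlap between the ranges, and EIF2B4 and EIF4E3 have the lower mean in birds numbered over 25.

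With the title range in the model, no gene passed between diets in any of the 6 pairs. The smallest adjusted p by limma were then 0.0565 for EIF5B (0.60, SE 0.129) and 0.0592 for EIF3J (0.41, SE 0.0903) in H minus A. Within both ranges the title numbers rise in the order A, E, F and H. With the range block alone, H minus A therefore cannot be told apart from a trend along the numbers within a range. With the number as a linear covariate instead, the smallest adjusted p by limma in H minus A was 0.439. In that fit 2 genes had an unadjusted p under 0.05. The differences themselves changed little, with a median of -0.08 and 31 of 45 below 0, against -0.09 and 32 without the covariate. Since the numbers rise with the diets, this covariate overlaps with H minus A.

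Correlation between genes was read over the 16 birds, after each diet's mean was subtracted, for the 10 genes with the smallest F p, which gives 45 gene pairs. In a permutation test that shuffled birds within diets (two-sided, 100000 permutations, Benjamini-Hochberg over 45 pairs), 10 pairs had an adjusted p under 0.05, 8 of them positive. This test leaves the title ranges out of account, although several of these genes differed between them. Pairs of other genes were not tested, so the count of 10 pairs has no background. With the mean of each diet and range subtracted instead, and the 2 birds of each swapped in an exact permutation test (256 arrangements, added after seeing the data), 0 of 45 pairs had an adjusted p under 0.05, 7 had an unadjusted one under 0.05, and the smallest adjusted p was 0.293. Of these 7 pairs, 3 were among the 10 of the first test. The smallest p that the exact design allows is 0.00781. After adjustment over 45 pairs, a pair at that p stays above 0.05 unless several others share it. The absence of passing pairs therefore cannot decide whether these genes correlate within ranges.

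EIF4G1 and EIF3L had r = 0.79 and rho = 0.84 with diet means subtracted (permutation p = 9e-05 for r and 4e-05 for rho, adjusted 0.00405 and 0.00157). Without the 2 birds farthest from the median of EIF4G1, chosen by that gene only, r was 0.68. Within title ranges r was 0.73 in the 8 birds numbered over 25 and 0.47 in the others, and it was 0.77 with diet and range means subtracted (exact permutation p = 0.0391, adjusted 0.293). EIF3B and EIF2D had r = 0.79 and rho = 0.75 (permutation p = 0.0106 and 0.0105, adjusted 0.0475 and 0.0443). Their r was 0.66 without the 2 birds farthest from the median of EIF3B, 0.81 in birds numbered over 25 and 0.76 in the others. With diet and range means subtracted their r was 0.92 (exact permutation p = 0.0938, adjusted 0.325).

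For EIF3J and EIF5B, r was 0.81 and rho 0.86 with diet means subtracted (permutation p = 0.00093 and 7e-05, adjusted 0.0209 and 0.00157), and r was 0.77 without the 2 birds farthest from the median of EIF3J. It was 0.37 in birds numbered over 25 and 0.29 in the others, both smaller than the pooled value, and 0.42 with diet and range means subtracted (exact permutation p = 0.0469, adjusted 0.301). The negative pairs among the 10 both held EIF4EBP1. With EIF3J its r was -0.78 (permutation p = 0.00331, adjusted 0.0306), and with EIF5B -0.76 (permutation p = 0.00314, adjusted 0.0306). With diet and range means subtracted these r were -0.45 and -0.56 (exact permutation p = 0.156 and 0.0938, adjusted 0.4 and 0.325).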

How the data were processed

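Jejunum RNA of 16 birds was extracted with Qiazol, cleaned on RNeasy columns, transcribed with an Ambion WT kit and labelled with biotin for Affymetrix arrays, per the labels' protocols. The deposited log2 values come from the authors' series table. GCOS 1.1.1 is named per the submitters' processing notes. How arrays were summarized and normalized, and the logarithm's base, is not given in the sources used here; base 2 was read from the range of the values, 0.79 to 14.48. Scaling between arrays before deposit can hide a shift shared by most genes.

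Of 20804 probe sets, 12300 had 1 gene symbol, 256 several and 8248 none in GEO's platform annotation, which can be old. The Entrez numbers of 44 of the 45 genes were found in the RefSeq gene table with the same symbol (EEF1D was not). EIF1 had 2 probe sets. No sequence or coordinate was used.

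With R 4.3.3 and limma 3.58.1, a linear model with the 4 diet means was fitted over the 16 arrays together and moderated (lmFit, eBayes). Benjamini-Hochberg adjustment ran over the whole table of 20804 probe sets for the F test and for each of 6 pairs, at a threshold of 0.05. The test of title number ranges had diet in the model and was chosen after seeing the data. In simulated data the fit recovered 72% of probe sets changed by a log2 size of 1 in H minus A and 94% of those changed by 2, with 10 false calls. Over the 6 pairs these shares ran from 63% (F minus E) to 76% (H minus F) and from 94% to 98%. Each simulation changed 100 probe sets of each size, with noise drawn independently and no difference between title ranges. In the data at most 1 probe set passed in any pair of diets. An adjusted threshold is easier to pass where many probe sets change, so these shares can be too high for the data. Sizes below 1 were not simulated, and the largest difference of the 45 genes in H minus A was 0.60. Recovery at the sizes reported for these genes is therefore not known. Correlations and figures used Python 3.11.15 with numpy 2.4.6 and matplotlib 3.10.9.

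Values by bird are given for the 10 genes with the smallest F p, the 3 with the smallest p in each pair, the genes with the highest and lowest mean signal, and the regulators EEF2K, EIF4EBP1 and EIF4EBP2. Of a pathway list, the 2 genes with the smallest p may be named. The genes, lists and tests were chosen with earlier results of these data known. The series' design text gives 4 chickens per diet, so p-values measure the spread between birds. Alternatives covered scaling, a filter on low signals, the arrays fitted, title numbers, the variance model, the choice of probe set and single birds.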

Additional observations from a re-analysis of the deposited data

Results flagged for a closer look

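In 9 of 180 groups of 4 birds (45 genes in 4 diets), 1 bird stood apart from the other 3 by a gap above the 95% critical value of Dixon's test, which sets the gap against the group's range. Chance flags about 1 in 20 groups, which is 9 of 180, so the number of such birds equals what chance gives. EEF1B2, an exchange subunit of eEF1, had 9.99 in replicate 3 of diet H, against 9.60 to 9.67 in the other birds of that diet, and 9.53 in replicate 1 of diet E, against 9.93 to 9.98. EEF2K had 8.59 in replicate 3 of diet A, against at most 8.08.

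For eIF2B, EIF2B2 had 8.43 in replicate 4 of diet H, against 8.82 to 8.87, EIF2B5 had 7.93 in replicate 3 of diet H, against 8.10 to 8.12, and EIF2B1 had 6.78 in replicate 1 of diet A, against 6.32 to 6.38. For eIF3, EIF3L had 9.07 in replicate 4 of diet H, against 9.41 to 9.44, and EIF3H had 9.39 in replicate 3 of diet F, against 9.60 to 9.64. EIF4ENIF1 had 6.97 in replicate 1 of diet F, against 7.29 to 7.33. Of these, the diet H bird of replicate 4 also had the lowest mean correlation with the other arrays, 0.9696.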

How the results depend on the processing

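No translation factor gene passed limma's test between diets in any of the 6 pairs under the alternatives tried, nor in the F test, which was not run on 8 arrays alone. Those tried were median centring, quantile normalization, a filter that drops the 25% of probe sets with the lowest mean (EIF4EBP2 among them), fitting the 8 arrays of a pair, title number as a block or a linear covariate, neighbouring numbers as a random block (correlation 0.173), an intensity trend with robust moderation, the mean over probe sets, 1 of each set of identical profiles, and each bird left out. For the 28 results of single genes named by the rule (the 10 of the F test and 3 in each pair), all 773 alternative values kept their side of the threshold, and the differences their direction. Over all 45 genes directions moved more: in H minus E, 20 were below 0 as reported, 13 after median centring and 26 after quantile normalization. The smallest adjusted p in H minus A was 0.0565, with the range block, and 0.439 with the linear number. The count at an unadjusted p of 0.05 in H minus A, 12 as reported, was 15 with the range block, 8 with the random block, 7 with 8 arrays and 2 with the linear number. With the linear number the median difference in H minus A was -0.08, against -0.09 as reported. No share of all probe sets under these alternative fits stands beside the counts.

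When each bird was left out, the median difference of the 45 genes ran from -0.14 to -0.05 for H minus A, -0.11 to -0.05 for F minus A, -0.13 to -0.07 for E minus A, -0.07 to 0.00 for H minus F, -0.01 to 0.05 for H minus E and -0.02 to 0.07 for F minus E. Of these medians, 6 alternative values moved by more than the spread between birds: 0.07 for F minus E without replicate 2 of diet E, and 5 with the ranges of title numbers fitted apart. In that fit, chosen after seeing the data, the median for H minus A was -0.17 in birds numbered up to 25. The median was 0.00 for F minus A in birds numbered over 25 and -0.17 in the others, and 0.07 and -0.06 for F minus E. The cause was not tested. Each such value rests on 2 birds a diet.

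Between title number ranges, 7 genes passed as reported, 6 after quantile normalization, 7 after median centring (5 of them shared, without EIF2B4 and EIF4E3), 9 without the lowest 25% and 8 with the random block. No share of all probe sets from the alternative fits stands beside these counts, so a change in them has no matching background. No paired analysis was possible because the labels do not link birds of different diets. The replicate numbers used here only order the birds within a diet.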

Other observations

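Some factor symbols are also carried by probe sets that were not used. The second probe set of EIF1 had means of 5.22 in diet H, 5.22 in diet F, 5.21 in diet E and 5.15 in diet A. Another 5 probe sets name both EIF2B4 and MAPRE3 and hold the same values in all birds, averaging 12.42 ± 0.29 in diet H, 12.50 ± 0.18 in diet F, 12.82 ± 0.24 in diet E and 12.71 ± 0.34 in diet A (SD, n = 4). A further probe set, 1 in number, names both EIF3J and LRRC75B. It averaged 5.96 ± 0.12 in diet H, 6.04 ± 0.09 in diet F, 6.05 ± 0.04 in diet E and 5.82 ± 0.20 in diet A. Its diet H mean lay below those of diets F and E, unlike that of the probe set used for EIF3J. For these shared probe sets, which of the named genes is measured cannot be told apart.

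Among the pathway lists, all 7 mitochondrial translation factors had a difference above 0 between birds numbered over 25 and the others, with a median of 0.25, and 6 had an unadjusted p under 0.05, but 0 passed limma's adjusted test. Of all 20804 probe sets, 7990 were above 0 and 25.2% had an unadjusted p under 0.05. Of 6 kinases and phosphatase subunits of eIF2 alpha, 6 were above 0 with a median of 0.27, and 2 passed, against 8.39% of all probe sets.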
